A study of Mus musculus with 6 samples.

Results

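The cytosolic ribosomal protein genes were examined in soleus muscle of heterozygous Mustn1 KO-first mice (HET) and WT mice. They were chosen by gene symbol alone, as genes of the deposited normalized table named Rpl, Rps, Rplp or Rpsa, with the Rps6k kinases and pseudogene names left out. This gave 81 of the 51912 genes in the count table. Of these, 42 encode proteins of the large subunit, 30 proteins of the small subunit and 3 the acidic stalk, and 6 are paralogs of other members. The soleus of 3 HET and 3 WT mice of the C57BL6/N strain, labelled male and 8 weeks old, was sequenced as polyA RNA with 1 library per mouse. HET mice carry 1 KO-first allele in every cell, in which a trapping element with lacZ and a neomycin resistance gene captures the splicing of the Mustn1 transcript, and no Cre was used. The WT mice were littermates.

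The cytosolic ribosome consists of a small subunit, which reads the mRNA, and a large subunit, which joins the amino acids. Each subunit is built from ribosomal RNA and a fixed set of proteins, nearly all made from a single functional gene each. In muscle the number of ribosomes sets the capacity for protein synthesis, and ribosomal protein mRNAs are known for a run of pyrimidine bases at their start, through which mTOR signalling acts on their translation. These genes have also left many processed copies in the mouse genome, so that short reads from them often match several places.

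Depth and labels were checked before the comparison. The libraries held 26790075 to 50368796 reads on genes. Mustn1, the targeted gene, stood at 12.6, 16.8 and 13.1 CPM (counts scaled to the library's size) in HET mice 1 to 3 and at 23.1, 29.0 and 30.5 CPM in WT mice 1 to 3. It fell in HET, with a log2 fold change of -0.96 (edgeR's quasi-likelihood test, adjusted p = 0.0452). That call on Mustn1 was lost when HET 1, HET 3, WT 1 or WT 2 was left out, with an adjusted p from 0.0659 to 0.28. The label male was at odds with the RNA of all 6 libraries, in which Xist stood at 144 to 224 CPM and Ddx3y, Kdm5d, Uty and Eif2s3y had at most 9 reads. Slow fiber genes, which mark the soleus, summed to between 39645 and 45205 CPM in every mouse. Fast fiber genes summed to between 44263 and 53949 CPM. Among these, Myh4 stood at 44.7, 2042 and 167 CPM in HET 1 to 3 and at 1470, 1774 and 976 CPM in WT 1 to 3. The part of the fiber mix in the results below was not tested. Ribosomal protein genes took 0.307% to 0.367% of the reads on genes. This share leaves out reads that match several places, so it cannot be read as their share of the mRNA.

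The start of the transcript was taken from RefSeq (GRCm38.p6), in which 61 of the 81 genes had an entry. Windows of 30 bases, 10 before the annotated start and 20 from it on, are shown for genes on which the results below turn. Capitals mark the longest run of a C followed by at least 4 further C or T bases, on the sense strand, whose C lies within 10 bases of the start.
Rpl14, chr9:120571507-120571536, plus strand: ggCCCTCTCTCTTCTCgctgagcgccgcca
Rpl15, chr14:18270967-18270996, minus strand: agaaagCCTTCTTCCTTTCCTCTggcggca
Rpl39, chrX:37085203-37085232, minus strand: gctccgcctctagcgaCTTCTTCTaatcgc
Rpl7a, chr2:26910797-26910826, plus strand: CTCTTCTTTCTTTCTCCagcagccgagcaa
Rplp2, chr7:141447641-141447670, plus strand: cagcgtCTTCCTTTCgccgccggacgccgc
Rpl26, chr11:68901556-68901585, plus strand: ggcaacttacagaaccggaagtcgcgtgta
Rps28, chr17:33824543-33824572, minus strand: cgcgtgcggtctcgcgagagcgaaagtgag
Rpl3l, chr17:24727816-24727845, plus strand: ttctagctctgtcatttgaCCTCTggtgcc
Rpl7l1, chr17:46782637-46782666, minus strand: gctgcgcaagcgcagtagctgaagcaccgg

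The run reached 17 bases in Rpl15 and in Rpl7a and 14 bases in Rpl14, while Rpl26, Rps28 and the paralog Rpl7l1 held none in this window. At least 1 annotated start carried such a run in 36 of the 61 genes, or 59%, against 9007 of 27025 genes of the table, or 33.3%. A run of these letters is a description of the sequence, not of a regulated mRNA. Among the tested genes, the 34 with a run and the 23 without had the same median log2 fold change of -0.12.

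The main comparison asked whether mRNAs of the ribosomal proteins differed between HET and WT muscle. No ribosomal protein gene passed the threshold of 0.05 on the adjusted p in either direction, and the smallest adjusted p was 0.607. The same test, edgeR's quasi-likelihood test over 14696 genes, called 0.143% of all genes higher and 0.00680% lower in HET. Of the 81 genes, 76 passed the filter on low counts and were tested. At an unadjusted p below 0.05, 0 of the 76 were higher in HET, against 5.76% of all genes, and 1 was lower, against 2.0% of all genes. DESeq2 and limma-voom also called 0 of the 76 at an adjusted p below 0.05, with 0 higher and 1 lower at an unadjusted p below 0.05 by each. In a count of mice, 3 of the 76 genes had every HET mouse above every WT mouse, against 7.55% of all genes, and 4 had every HET mouse below every WT mouse, against 6.02%. The 3 were Rpl10a, Rpl12 and Rpl36a, and the 4 were Rpl4, Rpl15, Rpl17 and Rps20, listed here after their values were seen.

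The estimates nevertheless leaned to lower values in HET. Of the 76 genes, 56 had a log2 fold change below 0 (73.7%), against 54.4% of all genes tested, and their median was -0.12 against -0.018. Without HET 3 the count was 42 of 76 (55.3%), against 50.6% of all genes, and the median -0.022. With library totals as the only scaling, 47 of the 76 (61.8%) were below 0, against 34.2% of all genes. The estimates ran from -0.56 for Rpl17 to 0.56 for Rps4l, and 3 exceeded 0.5 in size. The 95% interval held 0 for 75 of the 76 genes and lay within 1 log2 unit of 0 for 61, so that a 2-fold change was outside the interval for those 61. It lay within 0.5 log2 units of 0 for 33, and for the remaining genes a change of that size was not excluded by the interval.

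**Figure D1:**
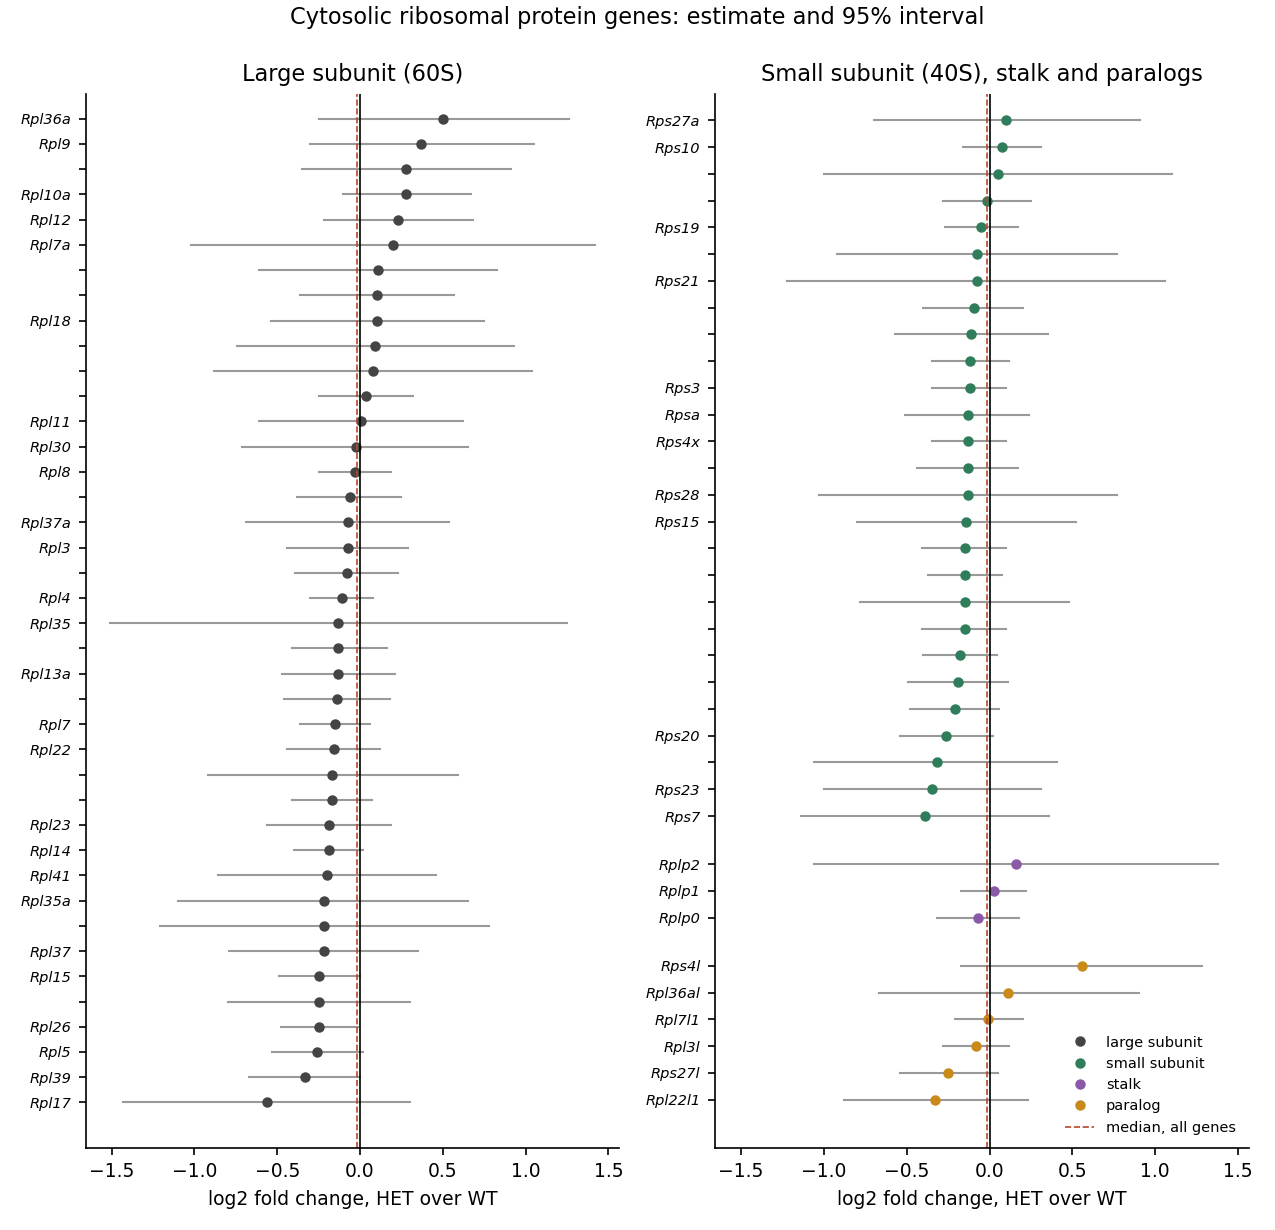
Log2 fold change of HET over WT for the 76 tested ribosomal protein genes, with the 95% interval as a line, by subunit, stalk and paralog group, with the names of genes described in the text. Most points lie left of 0, between -0.56 and 0.56, and 75 of the 76 intervals cross 0, while the dashed line is the median of all genes tested, -0.018.

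The 6 genes with the smallest p were all lower in HET on average. Rpl26 (ENSMUSG00000060938, GRCm38 chr11:68901583-68906989), which encodes a protein near the exit of the large subunit's tunnel, stood at 34.8, 37.3 and 30.9 CPM in HET 1 to 3 and at 41.6, 37.1 and 43.3 CPM in WT 1 to 3. HET 2 and WT 2 were nearly equal and the groups overlapped there. On the log2 scale it differed by -0.25 with a standard error of 0.10, at an unadjusted p of 0.0394 and an adjusted p of 0.607 by edgeR.

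Rpl15 (ENSMUSG00000012405, chr14:18267823-18271391), a core protein of the large subunit, stood at 26.5, 22.9 and 28.9 CPM in HET and 33.4, 30.5 and 29.1 CPM in WT. The groups did not overlap, but HET 3 and WT 3 lay side by side. The difference on the log2 scale was -0.25, with a standard error of 0.11 and an adjusted p of 0.646 by edgeR. Rpl39 (ENSMUSG00000079641, chrX:37082520-37085402) encodes a very small protein of 51 residues in the wall of the exit tunnel. It stood at 14.7, 11.8 and 11.7 CPM in HET and at 16.9, 18.2 and 13.1 CPM in WT. WT 3 fell among the HET mice, and the log2 difference was -0.33 with a standard error of 0.15 (edgeR, adjusted p = 0.652).

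Rps20 (ENSMUSG00000028234, chr4:3831334-3835665), a protein of the small subunit's head, stood at 31.7, 31.9 and 23.4 CPM in HET and at 35.0, 36.3 and 32.9 CPM in WT. The groups did not overlap, and HET 3 lay apart from HET 1 and HET 2. It differed by -0.26 on the log2 scale, with a standard error of 0.13 (edgeR, adjusted p = 0.694). Rpl5 (ENSMUSG00000058558, chr5:107900502-107909005), which carries 5S ribosomal RNA into the large subunit, stood at 12.2, 10 and 10.3 CPM in HET and at 13.5, 13.2 and 12.2 CPM in WT. Its lowest WT mouse and its highest HET mouse had the same rounded value. Rpl14 (ENSMUSG00000025794, chr9:120571444-120574654), a large subunit protein, stood at 46.8, 42.7 and 40.2 CPM in HET and at 52.2, 49.4 and 46.6 CPM in WT, with HET 1 just above WT 3. The differences of Rpl5 and Rpl14 did not pass the test either, at adjusted p = 0.698 and 0.699 by edgeR.

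**Figure D2:**
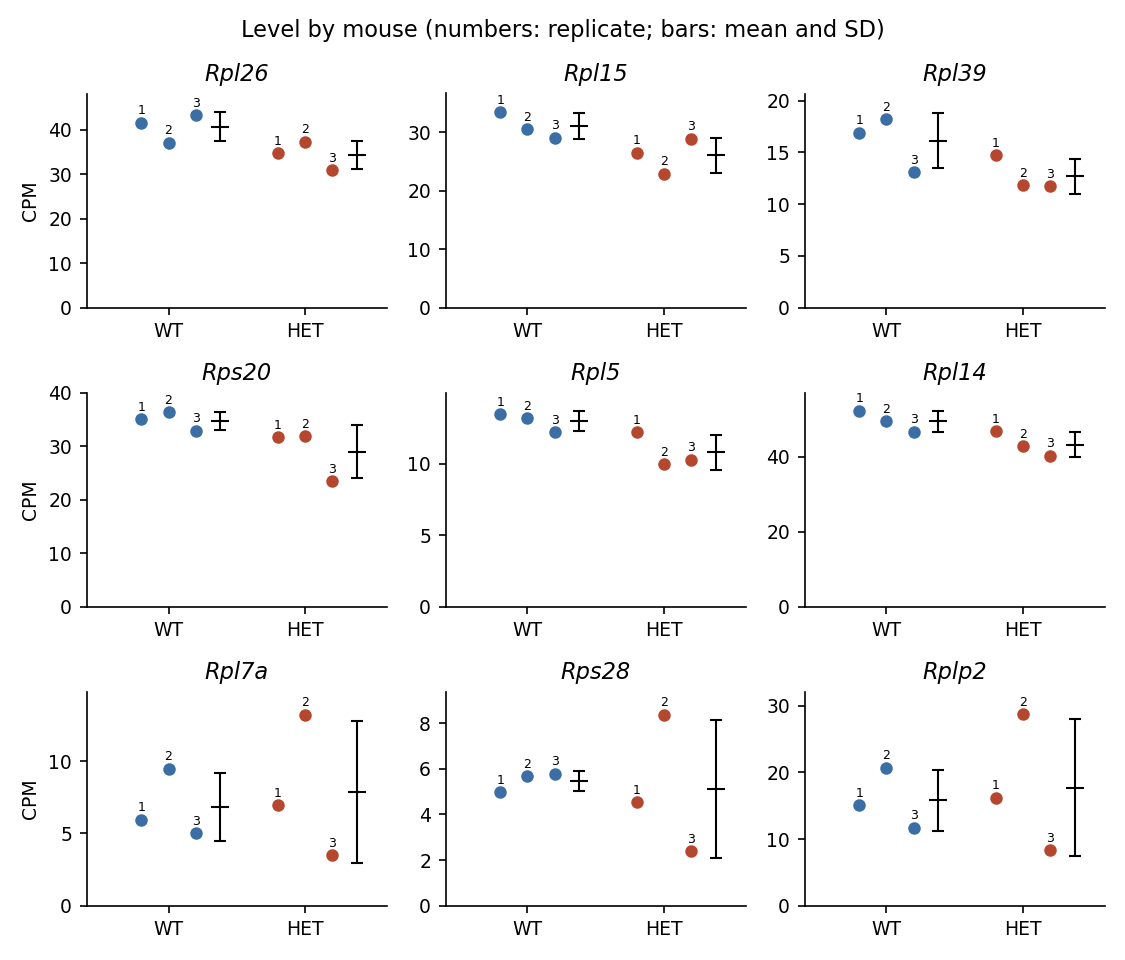
CPM of 9 ribosomal protein genes in each mouse, with the replicate number beside each point and the mean and SD (n = 3) at the right of each group. The upper 6 genes have the smallest p and differ by at most 0.33 on the log2 scale, and in the lower 3 genes HET 2 is the highest mouse and HET 3 the lowest.

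By subunit, 27 of the 40 tested large subunit genes and 24 of the 27 tested small subunit genes had a log2 fold change below 0, with medians of -0.12 and -0.13. None passed the adjusted threshold in either subunit. Rpl26 was the only gene of either at an unadjusted p below 0.05. The large subunit genes summed to 1134 to 1395 CPM in HET and to 1339 to 1424 CPM in WT. The small subunit genes summed to 1027 to 1332 CPM in HET and to 1274 to 1353 CPM in WT. In both sums the lowest mouse was HET 3, at 1134 and 1027 CPM, while HET 2 stood within the WT range in both and HET 1 within it in the first and just under it in the second.

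Among small subunit genes chosen by role, Rps3, which lines the mRNA entry channel and also serves in DNA repair, stood at 248, 253 and 200 CPM in HET and at 257, 258 and 248 CPM in WT. HET 3 was again the low mouse, and the log2 fold change was -0.12 (edgeR adjusted p = 0.878). Rps19, the gene most often mutated in Diamond-Blackfan anemia, was almost level, at 30.2 ± 2.96 CPM in HET and 31.3 ± 0.298 CPM in WT (SD, n = 3). Rpsa, which also binds laminin, was measured at 3.57 ± 0.432 and 3.91 ± 0.211 CPM. Rps27a, which is made as a fusion with ubiquitin, had only 12 to 37 reads in a library.

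Among large subunit genes chosen by role, Rpl11 and Rpl23, which like Rpl5 can bind the p53 regulator Mdm2, had log2 fold changes of 0.0061 and -0.19. Rpl23 stood at 36.4, 31.3 and 22.7 CPM in HET and at 35.1, 38.4 and 29.4 CPM in WT, so that its groups overlapped. Rpl13a, which can leave the ribosome to silence mRNAs in inflammation, had a log2 fold change of -0.13 with a 95% interval from -0.47 to 0.21. Rpl41, which encodes a peptide of 25 residues, stood at 11, 11.7 and 6.06 CPM in HET and at 10.1, 14.8 and 8.18 CPM in WT. None of these passed the test.

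The stalk recruits the elongation factors to the large subunit. Rplp0, its base, stood at 218, 256 and 184 CPM in HET and at 225, 233 and 233 CPM in WT. The WT mice were close together and the HET mice lay on both sides of them. Rplp1 was the steadiest of all 76 genes, at 127, 126 and 120 CPM in HET and 126, 129 and 112 CPM in WT, with 1.15 between the highest and the lowest mouse. Rplp2, its partner in the stalk, stood at 16.2, 28.7 and 8.29 CPM in HET and at 15.1, 20.7 and 11.7 CPM in WT, a ratio of 3.46 between HET 2 and HET 3. The partners thus differed in their spread between mice, and the log2 fold changes of Rplp1 and Rplp2 were 0.025 and 0.16, with 95% intervals from -0.17 to 0.22 and from -1.06 to 1.38.

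The members with the highest and lowest estimates were mostly those with few reads. Rpl36a, a large subunit protein, had 21, 19 and 26 reads in HET and 15, 12 and 19 in WT, and its log2 fold change was 0.50 (95% interval -0.25 to 1.26). Rpl17 had 15, 10 and 15 reads in HET and 12, 22 and 24 in WT, with a log2 fold change of -0.56 (95% interval -1.43 to 0.30). Scaled to library size, it stood at 0.401, 0.373 and 0.342 CPM in HET and at 0.401, 0.78 and 0.486 CPM in WT. HET 1 and WT 1 had the same rounded value, so its listing above among genes with every HET mouse below every WT mouse rests on a near tie. Rpl9 and Rpl10a, at log2 fold changes of 0.37 and 0.28, and Rps7 and Rps23, at -0.39 and -0.35, did not pass the test either. Among the 52 genes with at least 100 reads in every library the log2 fold changes ran only from -0.33 to 0.20, with 45 below 0 and a median of -0.13. The share below 0 of all genes at that depth is not given, only the 54.4% of all genes tested.

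The mice differed more than the genotypes. HET 3 was the lowest of the 6 mice in 45 of the 76 genes (59.2%), against 21.1% of the other genes tested. HET 2 was the highest in 24 genes (31.6%, other genes 23.2%) and WT 2 in 22 (28.9%, other genes 14.3%). Relative to each gene's own mean, the median of the 76 genes was -0.26 in HET 3 on the log2 scale, against -0.0066 for the other genes in the same library. It was 0.03 in HET 1, 0.075 in HET 2, 0.083 in WT 1, 0.11 in WT 2 and -0.019 in WT 3. HET 1 and HET 2 thus lay near the WT mice, and HET 3 lay below all 5 other mice.

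**Figure D3:**
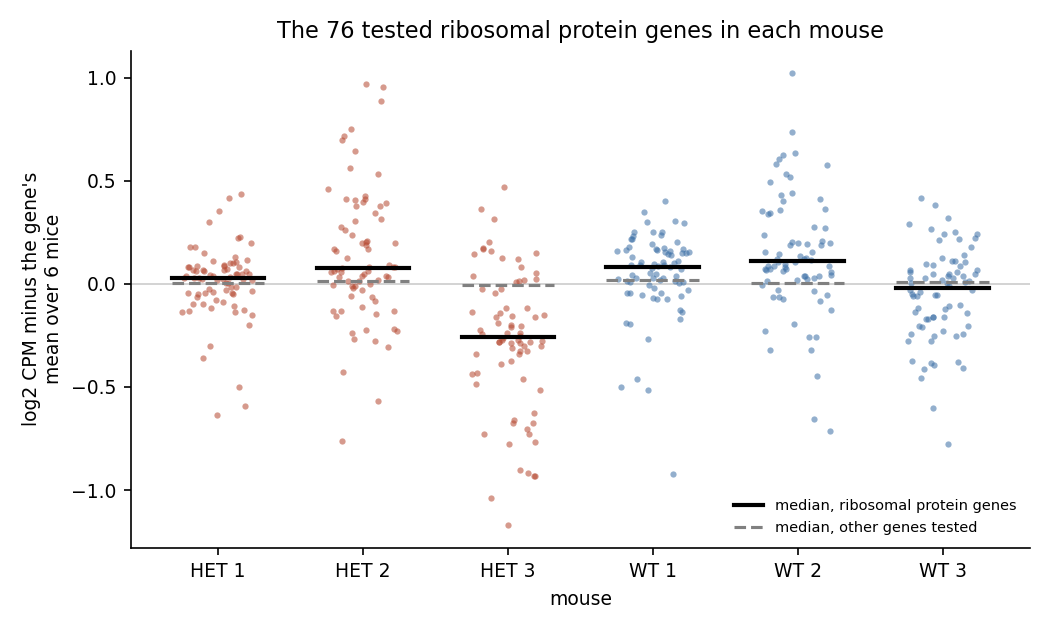
Level of each of the 76 tested ribosomal protein genes in each mouse, as log2 CPM minus the gene's mean over the 6 mice, with the median of these genes (black) and of all other genes tested (dashed). The black line lies at -0.26 in HET 3 and between -0.019 and 0.11 in the other 5 mice, while the dashed lines stay near 0.

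The spread between mice was uneven over the genes. The highest mouse exceeded the lowest by a ratio of 1.52 in the median gene, from 1.15 for Rplp1 to 4.93 for Rpl35. Of the 52 genes with at least 100 reads in every library, 13 had a ratio above 2. The share of all genes at that depth with such a ratio is not given. HET 3 was lowest in 12 of the 13, but it was also lowest in 39 of the 52. HET 2 was highest in 9 of the 13 and WT 2 in the other 4. Rpl7a, a large subunit protein, stood at 6.94, 13.2 and 3.49 CPM in HET and at 5.95, 9.47 and 5.02 CPM in WT. Rps28, a small protein near the mRNA exit, stood at 4.54, 8.38 and 2.39 CPM in HET and at 4.98, 5.67 and 5.79 CPM in WT. In both genes HET 2 and HET 3 lay at opposite ends, with the WT mice between them.

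The 13 also included Rpl18, Rpl30, Rpl35a, Rpl37, Rpl37a, Rpl41, Rplp2, Rps15 and Rps21, and all were singled out after their values were seen. The transcripts of the 13 were 271 to 1260 bases long, and 5 of the 10 with a RefSeq start carried the pyrimidine run. Rpl4, Rps19, Rpl3l and Rpl7l1, by contrast, varied by ratios of 1.16 to 1.21 over the same 6 mice. Over the 76 genes, transcript length and the SD between mice had a Spearman rho of -0.37, a description over genes that share the 6 libraries. The libraries also differed in these respects. HET 3 had the steepest rise of counts with gene length, 0.045 per doubling over all genes, and HET 2 the steepest rise with GC content, 0.262 per 10 points. With the length trend of each library removed, 54 of the 76 genes were below 0, against 52% of all genes, with a median of -0.087. With the GC trend removed 57 were, against 52.3% of all genes, with a median of -0.12. The part of length and GC content in the single genes was not tested.

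The paralogs are copies of a ribosomal protein gene with a sequence and an expression pattern of their own. Rpl3l (ENSMUSG00000002500, chr17:24727820-24736143) is the striated muscle form of Rpl3, a protein beside the catalytic centre, and encodes 407 residues against 403. Per kb of exon, Rpl3l stood at 253, 280 and 241 CPM in HET and at 270, 259 and 289 CPM in WT. Rpl3 stood at 1.28, 1.29 and 1.59 CPM per kb in HET and at 1.51, 1.35 and 1.51 in WT. The ratio of Rpl3l to Rpl3 was 189 ± 33.7 in HET and 187 ± 7.14 in WT (SD, n = 3), and the groups overlapped.

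The sequence that could be counted also differed within the pair. In the Rpl3 transcript only 14.4% of windows of 50 bases, the read length, occur in no other annotated gene, against 100% in Rpl3l. Per such window, Rpl3l had 11.7, 9.32 and 13.1 reads in HET and 10, 9.04 and 17.7 in WT, and Rpl3 had 0.793, 0.574 and 1.15 in HET and 0.75, 0.633 and 1.24 in WT. Rpl3l thus stayed the higher of the pair in every mouse on this scale too, but by a much smaller ratio than per kb. The reads were counted over all exons of a gene, 3119 bases in Rpl3, and CPM per kb divides by these. The windows come from 1 transcript, of 1351 bases in Rpl3. Reads outside that transcript therefore enter the value per window, here and in the pairs below. The log2 fold changes were -0.08 for Rpl3l, with a 95% interval from -0.28 to 0.12, and -0.075 for Rpl3.

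In 3 pairs the parent was higher per kb in every mouse. Rpl7l1, a large subunit paralog also linked to ribosome assembly, stood at 13.9 to 16.1 CPM per kb and Rpl7 at 23.2 to 29.5. Rpl22l1, the paralog of the RNA-binding Rpl22, stood at 1.43 to 2.84 against 21.4 to 32.2. Rps4l, which GENCODE M21 lists as a transcribed processed pseudogene, stood at 0.922 to 3 against 20.8 to 26.7 for the X-linked Rps4x. The log2 fold change of Rps4l, 0.56, was the highest of the 76 (edgeR adjusted p = 0.799). It had 67, 76 and 84 reads in HET and 26, 38 and 103 in WT. Scaled to library size, it stood at 1.79, 2.83 and 1.91 CPM in HET and at 0.87, 1.35 and 2.09 CPM in WT. HET 2 was thus the highest mouse, and the groups overlapped because WT 3 lay above HET 1 and HET 3.

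Rpl36al stood at 0.386 to 0.96 CPM per kb and Rpl36a at 0.233 to 0.428, both from at most 57 reads in a library. Rpl36al was the higher per kb in every mouse but HET 2, whereas per window found in no other gene Rpl36a was the higher in all 6, at 0.19 to 0.413 reads against 0.08 to 0.326. Rps27l, a gene known as a p53 target, stood at 22.8 to 34.7 CPM per kb against 0.0357 to 0.408 for Rps27, whose transcript has only 4 windows found in no other gene. Per such window Rps27l had 1.77 to 3.38 reads and Rps27 0.25 to 3, so that the order of this pair too depended on the scale. Of the remaining paralogs, which the rule did not take in, Rpl39l had at most 2 reads in a library and Rpl10l had 0 reads in all 6. Of the 6 paralogs tested 0 passed the threshold.

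**Figure D4:**
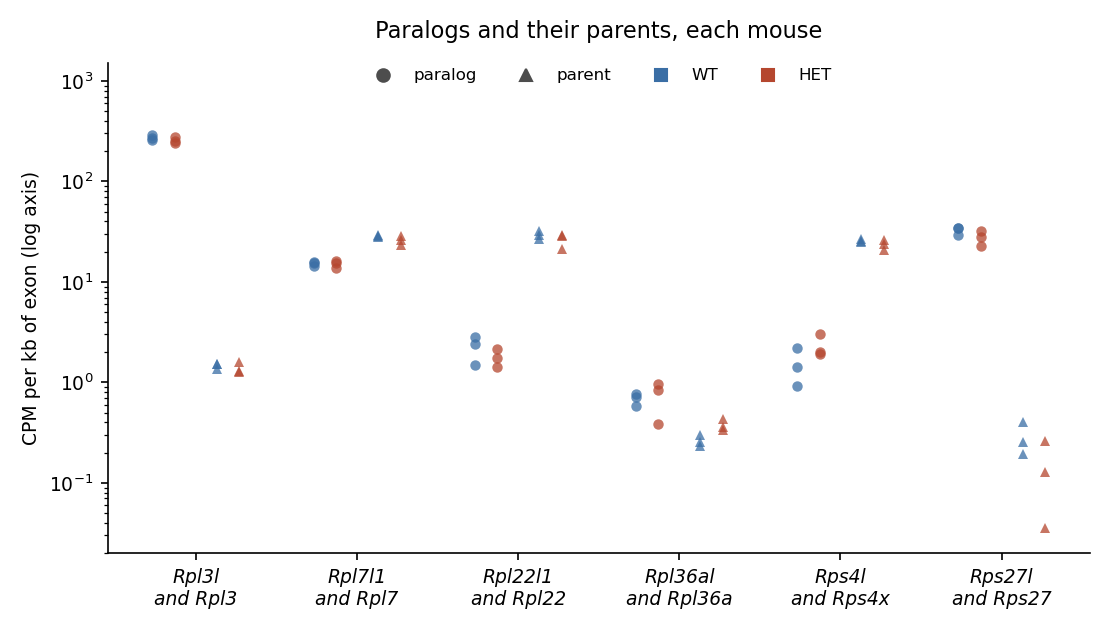
CPM per kb of exon, on a log axis, of 6 paralogs (circles) and their parents (triangles) in each WT and HET mouse. Rpl3l lies over 100-fold above Rpl3 and Rps27l far above Rps27 on this scale, while Rpl7, Rpl22 and Rps4x lie above their paralogs. Per window found in no other gene (not drawn), Rpl3l has 9.04 to 17.7 reads against 0.574 to 1.24 for Rpl3, and the ranges of Rps27l and Rps27 overlap. The WT and HET points of each gene overlap except in Rpl36a, where the HET points lie above the WT points. Scatter is wide in Rps27 and Rps4l.

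Between members, counted levels differed widely. Per kb of exon the highest means were 296 CPM for Rpl8, 265 for Rpl3l, 247 for Rplp1, 239 for Rpl4 and 135 for Rplp0, and among the lowest tested were 0.306 for Rps27a and 0.32 for Rpl36a. Ribosomal proteins are present in about equal numbers in a ribosome, so these levels cannot be read as amounts of protein. The share of 50-base windows that occur in no other annotated gene ran from 1.35% in Rps27 to 100% in Rpl3l, with a median of 38.8%. Over the 76 tested genes this share and log2 CPM per kb had a Spearman rho of 0.59 and a Pearson r of 0.60, which describes genes of the same libraries.

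The 5 genes below the filter on low counts were Rpl23a, Rpl24, Rps6, Rps16 and Rps27. Rps6, the small subunit protein phosphorylated by the S6 kinases, had 3, 4 and 12 reads in HET and 4, 5 and 13 in WT. Rpl23a had 0 to 9 reads, Rpl24 0 to 9, Rps16 5 to 19 and Rps27 1 to 12. In Rps6 only 15.4% of windows were unique, in Rpl23a 14.3%, in Rpl24 18.3% and in Rps27 1.35%, but in Rps16 58.4%. Of the exon bases of Rpl24, 53% lay in no other gene on the strand. Reads that match several genes were not counted, so these counts cannot be read as mRNA levels, and no comparison was made.

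**Figure D5:**
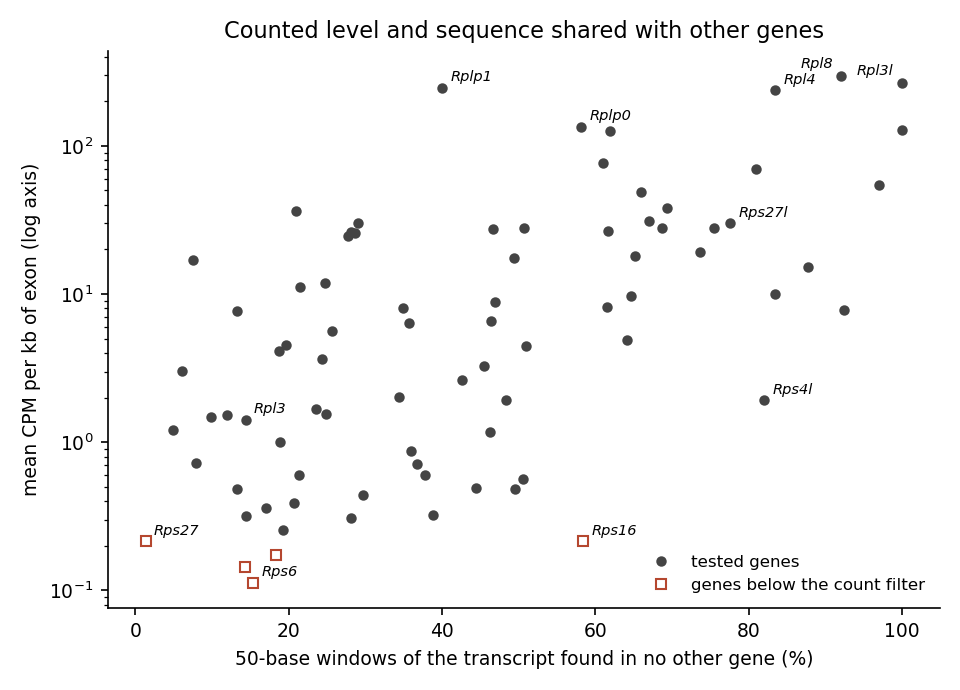
Mean CPM per kb of exon (log axis) of the 81 ribosomal protein genes against the percentage of 50-base windows of their transcript found in no other annotated gene. Genes with few such windows tend to lie lower, Rpl3l, Rpl8 and Rpl4 lie at the upper right, and 4 of the 5 genes below the count filter (squares) have under 20% unique windows.

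The rest of the translation machinery was set beside these genes. Rack1, a scaffold on the small subunit, stood at 281 ± 30.8 CPM in HET and 295 ± 8.59 CPM in WT (SD, n = 3). Fau, a fusion with a small subunit protein, had at most 6 reads and was not tested. Of 288 ribosomal protein pseudogenes, 136 had 0 reads in all libraries and 14 were tested, of which 0 passed. Their estimates ran from -0.86 for Rpl36a-ps2 to 0.55 for Rps10-ps1, with 11 of the 14 below 0.

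Of the 78 mitochondrial ribosomal protein genes, which make the ribosomes inside mitochondria, 77 were tested and 0 passed the adjusted threshold, with 0 higher and 1 lower at an unadjusted p below 0.05. Their estimates were below 0 in 70 of 77, with a median of -0.08 and a range from -0.28 for Mrps33 to 0.26 for Mrps36. HET 3 was the lowest mouse in 57 of the 77. The low position of HET 3 was therefore shared by the mitochondrial set, although its median there, -0.14 relative to the gene means, was nearer to 0 than the -0.26 of the cytosolic genes.

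Of the 39 translation factors, 30 were below 0 with a median of -0.066, from Eif2s2, a subunit of the factor that brings the initiator tRNA, at -0.28 to Eef1a1, an elongation factor, at 0.074. Eif2s2 had an unadjusted p of 0.0254 and an adjusted p of 0.511 by edgeR. Of 59 ribosome biogenesis genes, 31 were below 0 with a median of -0.0084, from Snu13 at -0.36 to Fbl, the methyltransferase of ribosomal RNA, at 0.64. Fbl had 20 to 57 reads in HET and 19 to 29 in WT and did not pass (edgeR adjusted p = 0.775). Of 23 genes that control ribosomal protein mRNA translation, 17 were below 0 with a median of -0.056, from Ddit4, an inhibitor of mTORC1, at -0.34 to Rptor, an mTORC1 subunit, at 0.12. The 11 genes of the Mdm2 and p53 axis had a median of 0.0057, from Mdm4 at -0.14 to Bbc3 at 0.60. In these 4 lists 0 genes passed the adjusted threshold.

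Markers of other cells moved with genotype beside these results. The summed level of 15 macrophage markers was 104 to 149 CPM in HET and 58.2 to 67.6 CPM in WT. Of the 15, 6 rose (Adgre1, C1qa, C1qb, Csf1r, Ctss and Lyz2) and 0 fell. Each of the 6 calls was lost without HET 1, HET 3, WT 1 or WT 2, omissions that each left 0 genes called in all, and that on Csf1r also without HET 2. The call on Adgre1 was lost as well with limma-voom, non-robust dispersion or the GC trend removed, and that on Csf1r with the last 2 of these. Fibroblast markers summed to 2861 to 4020 CPM in HET and to 1410 to 2221 CPM in WT, with 1 of 15, Pi16, past the threshold, a call also lost without each of those 4 mice, without HET 2, with non-robust dispersion and with the GC trend removed. Tenocyte markers summed to 409 to 736 CPM in HET and 132 to 328 CPM in WT, with 0 of 10 past it. HET 3 was the mouse with the highest macrophage and fibroblast sums, 149 and 4020 CPM. It had the lowest ribosomal protein sum, 2935 CPM against 3463 to 3665 CPM in the other 5. HET 2, however, had the next highest fibroblast sum, 3609 CPM, and the highest tenocyte sum, 736 CPM, with the highest ribosomal protein sum, 3665 CPM. The part of these cells in the ribosomal protein levels was not tested, and in bulk muscle a different share of cells and a different level per cell cannot be told apart.

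Smooth muscle and pericyte markers summed to 1223 to 1335 CPM in HET and 1361 to 1506 CPM in WT, with 0 of 11 past the threshold. The single markers were split, with 5 above 0 and 6 below. Their median log2 fold change was -0.014, from Myocd at -1.27 to Cnn1 at 0.60. The sums of endothelial, lymphocyte, erythroid, adipocyte, Schwann, slow fiber, fast fiber and satellite cell markers overlapped between the genotypes, with 0 genes past the threshold in any of these lists. The erythroid sum, of 5 markers, was 73.3, 119 and 71.5 CPM in HET 1 to 3 and 93.6, 134 and 83.5 CPM in WT 1 to 3. Its highest mice were WT 2 and HET 2 and its lowest HET 3, as with the ribosomal protein sum, and its part in that sum was not tested. The adipocyte sum was 73.2, 229 and 105 CPM in HET and 28, 25.1 and 102 CPM in WT, with all 6 markers above 0 and a median log2 fold change of 1.07. Only WT 3 overlapped with HET there. With all mice the log2 fold change of Lep was 0.54 (edgeR, adjusted p = 0.962). Without WT 3 it was 3.07 and passed the threshold (edgeR, adjusted p = 0.0123). That omission is singled out because of this overlap, so the pass adds no independent result. It also raised the calls higher in HET over all genes from 21 to 77. The lymphocyte sum did not exceed 1.71 CPM.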

How the data were processed

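Poly-A RNA was sequenced as single 50-base reads on a stranded kit. The authors aligned the reads to GRCm38.p6 with STAR 2.7.3a and made the deposited raw counts with featureCounts 2.0.3 in reverse-stranded mode, in which reads that match several places or several genes are not counted. The deposited normalized signal is that count divided by 1 size factor per library, and it served only to find the genes. The authors' own DESeq2 comparison was not used. Counts were tested with edgeR 4.0.16 in R 4.3.3 (robust quasi-likelihood, TMM, filterByExpr with a minimum count of 10, genotype only, two-sided, Benjamini-Hochberg over 14696 genes, threshold 0.05). The biological coefficient of variation was 0.143. A standard error is the estimate over the square root of F. CPM use TMM factors. The analysis was tested on simulated data, with set changes larger than any estimate of the ribosomal protein genes. That simulation does not show how well changes as small as theirs are found. Windows of 50 bases were taken from the shortest principal GENCODE M21 transcript and searched in all other annotated transcripts on both strands, not in the genome. Alternatives used other scaling, filters, tools, trends and fewer mice. Genes were named singly if they had the smallest p, the extreme fold changes or levels, a paralog, a listed role, or too few counts. The genes and lists were chosen with earlier results of these data known. Proteins of paralogs were not aligned here, and some genes are not reported here.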

Additional observations from a re-analysis of the deposited data

How the results depend on the processing

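No ribosomal protein gene passed the adjusted threshold under any of the 20 alternatives. The count of genes below 0 ran from 42 of 76 (without HET 3) to 64 of 78 (without HET 2), and the median log2 fold change from -0.18 to -0.022 over the same omissions. Of all genes tested, 50.6% were below 0 without HET 3 and 51.7% without HET 2. With 1 mouse left out, the number at an unadjusted p below 0.05 ran from 0 to 1 higher and from 0 to 8 lower, and the calls over all genes from 0 to 77 higher and from 0 to 6 lower. Over the other 14 alternatives, 1 member was higher at an unadjusted p below 0.05 without a filter on low counts and with the length trend removed together with the replicate block. The number lower was 0 with upper-quartile factors and with library totals only, 2 with TMM factors computed without these genes, 4 without a filter, 4 with the GC trend removed, 4 with the replicate block and 9 with the GC trend removed and the block. Over all genes, the calls higher in HET were 218 with DESeq2, 12 with limma-voom, 6 with non-robust dispersion, 386 without a filter, 7 with the GC trend removed, 114 with the replicate block, 140 with the length trend removed and the block and 97 with the GC trend removed and the block. The calls lower in HET were 8 with DESeq2, 0 with non-robust dispersion, 18 without a filter, and 2 with the block alone, with the length trend removed and the block, and with the GC trend removed and the block. The cause of these shifts was not tested. The listed calls over all genes rest on the adjusted threshold. How many of all genes passed the unadjusted cutoff is given for the main test only, not for any alternative. The ribosomal protein counts at that cutoff, up to 8 or 9 lower, thus have no matching background. They cannot be read as particular to these genes. The deviations of mice with the same number had correlations of 0.203, -0.00578 and -0.0349 over all genes and of 0.151, 0.324 and 0.256 over the ribosomal protein genes. Over the latter HET 1 and HET 3 correlated better with a WT mouse of another number (0.191 and 0.272). No label says that a number marks a litter or a day, so the replicate block was kept as an alternative. Of the 76 genes, 41 kept the sign of their estimate under all 20 alternatives. The share of all genes that did so is not given. With 3 mice a group, the 95% interval lay within 0.5 log2 units of 0 for only 33 of the 76.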
